A study of Mus musculus with 9 samples.

Results

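Lmx1b, its non-coding neighbour C130021I20Rik and 6 further homeodomain genes of neuron subtypes (Lmx1a, Lhx1, Lhx2, Lhx5, Isl1 and Phox2a) were followed in mouse embryonic stem cells (ESCs) in which a forced E2A homodimer was switched on. The 8 genes were taken by name from the 47729 genes of the FPKM table (fragments per kilobase of gene, scaled to the number of mapped reads). The members were selected on earlier results from these libraries, chiefly log2 fold-changes at 24 h against 0 h, and no threshold was set, so every comparison of the 8 genes with 0 h is given as a description, without p values, and where thresholds are mentioned for them nothing is read from it. The study asked whether E2A, the bHLH factor encoded by Tcf3, is sufficient to start neural differentiation in culture that normally holds ESCs back from it. A single inducible ESC line was analysed. It carries FLAG-tagged mouse E47, an E2A isoform, joined by a flexible linker to a further E47 copy, under a tetracycline-response element, at a site for cassette exchange that lies upstream of HPRT. All cells carried the transgene and were kept in LIF/serum. The groups were 0 h (no doxycycline), 18 h and 24 h of doxycycline (dox) at 1 µg/ml, with 3 libraries each. No dox-treated cells without the transgene were analysed here, so effects of dox and of the homodimer cannot be told apart. Untreated libraries at 18 h or 24 h were not among the samples either, so time in culture cannot be told apart from dox. One treatment entry of the labels speaks of other times, whereas the titles and the entry of each sample give 18 h and 24 h, which were used.

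LIM-homeodomain factors pair a DNA-binding homeodomain with LIM domains that recruit the adaptor Ldb1, and combinations of them set the identity of neurons. Lmx1b specifies serotonergic and midbrain dopaminergic neurons, dorsal spinal cord neurons, the dorsal side of the limb and podocytes of the kidney. Its paralogue Lmx1a acts in midbrain dopaminergic neurons and the roof plate, Lhx1 and Lhx5 in spinal interneurons, Lhx2 in the forebrain and eye, Isl1 in motor and sensory neurons and the heart, and Phox2a in noradrenergic and cranial motor neurons. Several of them also act outside the nervous system, so their transcripts alone do not name a cell type.

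Reads on genes ranged from 22028363 to 26471569 per library. Tcf3, whose reads include those of any E47 transgene sequence counted on it, ranged from 37.7 to 41.2 FPKM at 0 h and from 93.6 to 116 FPKM in the dox libraries, which fits the labels. Of the 6 pluripotent cell markers (Pou5f1, Sox2, Nanog, Zfp42, Esrrb and Klf4), all tested, none passed the test in either direction at either time by limma, edgeR or DESeq2. At each time 2 had an unadjusted p under 0.05 (limma), as had 25.4% of all genes at 18 h and 28.2% at 24 h. At 24 h these were Nanog, higher (log2 fold-change 0.86, adjusted p = 0.00735), and Pou5f1, lower (-0.58, adjusted p = 0.022), both short of the threshold on size. The summed FPKM of the 6 ranged from 550 to 762 at 0 h, from 497 to 648 at 18 h and from 470 to 629 at 24 h. In bulk RNA, a change in the share of cells that use a gene and a change in its RNA per cell cannot be told apart.

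Lmx1b (ENSMUSG00000038765) spans chr2:33560965-33640511 on the minus strand of GRCm38 in the GENCODE M21 annotation and has up to 8 exons. C130021I20Rik (ENSMUSG00000052951), annotated as an antisense RNA with up to 3 exons, spans chr2:33641193-33646354 on the plus strand. Both genes point away from each other, with 681 bases between them in that annotation. RefSeq (GRCm38.p6) places the Lmx1b start further upstream, and the starts of the pair there lie 95 bases apart. RefSeq promoter windows matched 7 of the 8 genes. The 250 bases before the start are shown for this pair because the 2 genes moved together in these libraries, and for Isl1 because it was the one matched gene whose window held CAGCTG. Capitals mark each CANNTG (an E-box, the hexamer that bHLH dimers bind), 5′ to 3′ on the strand of the gene.
Lmx1b, chr2:33641099-33641348, minus strand: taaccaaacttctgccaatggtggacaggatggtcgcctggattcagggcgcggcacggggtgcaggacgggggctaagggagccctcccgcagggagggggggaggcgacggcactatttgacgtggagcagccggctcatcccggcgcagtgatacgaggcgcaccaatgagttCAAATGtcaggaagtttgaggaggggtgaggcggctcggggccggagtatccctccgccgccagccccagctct
C130021I20Rik, chr2:33640943-33641192, plus strand: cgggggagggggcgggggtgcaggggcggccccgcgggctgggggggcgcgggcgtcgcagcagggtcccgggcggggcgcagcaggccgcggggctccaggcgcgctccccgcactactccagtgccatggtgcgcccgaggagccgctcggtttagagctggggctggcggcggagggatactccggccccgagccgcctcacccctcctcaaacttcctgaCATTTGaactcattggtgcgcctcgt
Isl1, chr13:116309689-116309938, minus strand: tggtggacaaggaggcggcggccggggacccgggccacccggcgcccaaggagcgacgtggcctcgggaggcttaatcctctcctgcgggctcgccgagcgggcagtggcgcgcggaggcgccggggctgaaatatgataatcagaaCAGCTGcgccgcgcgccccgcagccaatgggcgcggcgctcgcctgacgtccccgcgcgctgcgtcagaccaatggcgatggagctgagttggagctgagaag

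The Lmx1b and C130021I20Rik windows share 94 bases, and the CAAATG of the first is the CATTTG of the second read on the other strand, at chr2:33641167-33641172. Its last base lies 69 bases before the RefSeq start of Lmx1b and 21 bases before that of C130021I20Rik. The Isl1 window held 1 CAGCTG, ending 98 bases before the start. The search covered both strands for CANNTG, which is its own reverse complement in form. It also covered the special case CAGCTG, likewise the same on both strands, as well as the special case CACCTG, which reads as CAGGTG on the strand opposite. Neither window of the pair held CAGCTG and neither held CACCTG. Lmx1a held 1 CAAGTG, and none of the 3 motifs was found in the windows of Lhx1, Lhx2 (2 windows) or Phox2a. Among 32817 promoter windows of the same length, 66.2% held CANNTG, 13.0% held CAGCTG and 17.2% held CACCTG. These matches describe letters in these windows, not binding.

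Lmx1b was near the limit of detection without dox and had the highest mean FPKM of the 8 genes at 18 h and 24 h. At 18 h its libraries overlapped those of Phox2a. Lmx1b had 15, 23 and 16 reads at 0 h, 211, 309 and 375 reads at 18 h, and 363, 451 and 629 reads at 24 h. The levels were 0.129, 0.196 and 0.151 FPKM at 0 h, 1.89, 2.54 and 3.18 FPKM at 18 h, and 2.93, 3.62 and 4.73 FPKM at 24 h. Every dox library lay above every 0 h library, whereas the 18 h and 24 h libraries overlapped. The mean of 0.159±0.0344 FPKM (mean±SD, n=3) at 0 h compares with 2.54±0.643 FPKM at 18 h and 3.76±0.911 FPKM at 24 h. The log2 fold-change of FPKM+0.1 was 3.33±0.229 (SE) at 18 h and 3.88±0.229 at 24 h. The constant of 0.1 shrinks the change of a gene this low, and the ratio of pooled reads at 24 h to 0 h, per read on genes, was 24.6 (95% interval 18.8 to 32.9, exact binomial, counting error only).

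C130021I20Rik, a long non-coding RNA, followed the same course at a lower level. It had 5, 3 and 7 reads at 0 h, 111, 155 and 148 reads at 18 h, and 165, 179 and 319 reads at 24 h. The levels were 0.0506, 0.0302 and 0.0778 FPKM at 0 h, 1.17, 1.50 and 1.48 FPKM at 18 h, and 1.57, 1.69 and 2.83 FPKM at 24 h. The 3 time points did not overlap, and the highest value by far was that of 24 h replicate 3, the library that was also highest for Lmx1b. The log2 fold-change was 3.28±0.244 (SE) at 18 h and 3.77±0.244 at 24 h. The ratio of pooled reads at 24 h to 0 h was 40.7 (95% interval 24.5 to 73.1, counting error only). The FPKM of Lmx1b was 1.61 to 2.15 times that of C130021I20Rik in the 6 dox libraries and 1.94 to 6.50 times in the 3 libraries at 0 h, where C130021I20Rik rested on 3 to 7 reads.

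**Figure D1:**
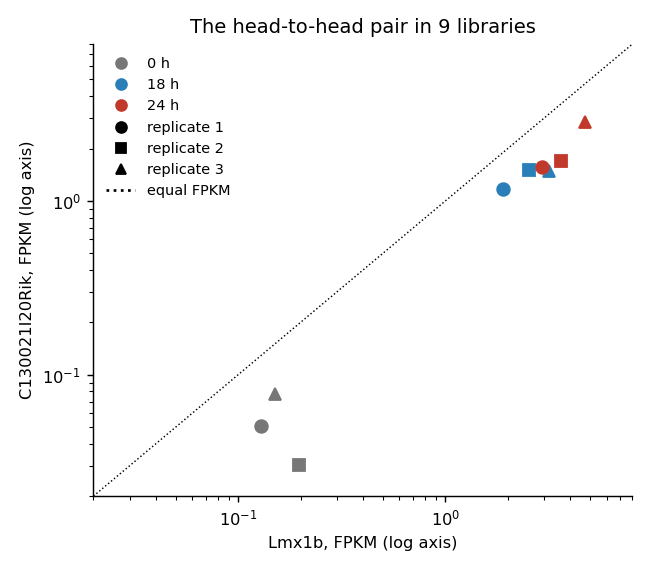
FPKM of C130021I20Rik (vertical, log axis) against FPKM of Lmx1b (horizontal, log axis) in each of the 9 libraries, coloured by time in dox and shaped by replicate number, with a dotted line where both are equal. The 0 h libraries sit below 0.2 FPKM on both axes, and the 6 dox libraries lie between 1.61-fold and 2.15-fold to the right of the line.

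The genes whose span came within 500 kb of Lmx1b showed smaller differences than the pair, which was itself chosen for its difference. The window held 21 genes besides the pair, of which 6 passed the filter on low values (a mean of at least 0.1 FPKM over the 9 libraries). None of the 6 passed the test at 24 h, by limma on log2(FPKM+0.1). The p values were adjusted by Benjamini-Hochberg over the 17951 genes tested. An adjusted p up to 0.05 was required together with a log2 fold-change of 1 or more in size. Of the 6, 1 had an unadjusted p under 0.05, as had 28.2% of all genes tested. That gene, Angptl2, which encodes a secreted angiopoietin-like protein and lies within the span of Ralgps1, went from 0.178±0.0489 FPKM to 0.375±0.0544 and 0.462±0.153 FPKM. Its log2 fold-change at 24 h was 0.998±0.255 (SE; adjusted p = 0.038, limma), just short of the required 1, and the gene was called by edgeR (log2 fold-change 1.38, adjusted p = 0.00726). The other tested neighbours stayed near their 0 h levels. Garnl3, Ralgps1, Zbtb34, Zbtb43 and Mvb12b had log2 fold-changes between 0.01 and 0.19 at 24 h. Zbtb34 and Zbtb43, which encode zinc-finger proteins, stood at 4.26±0.305 and 6.18±0.444 FPKM at 0 h. The 15 remaining genes had means under 0.1 FPKM and were not tested.

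**Figure D2:**
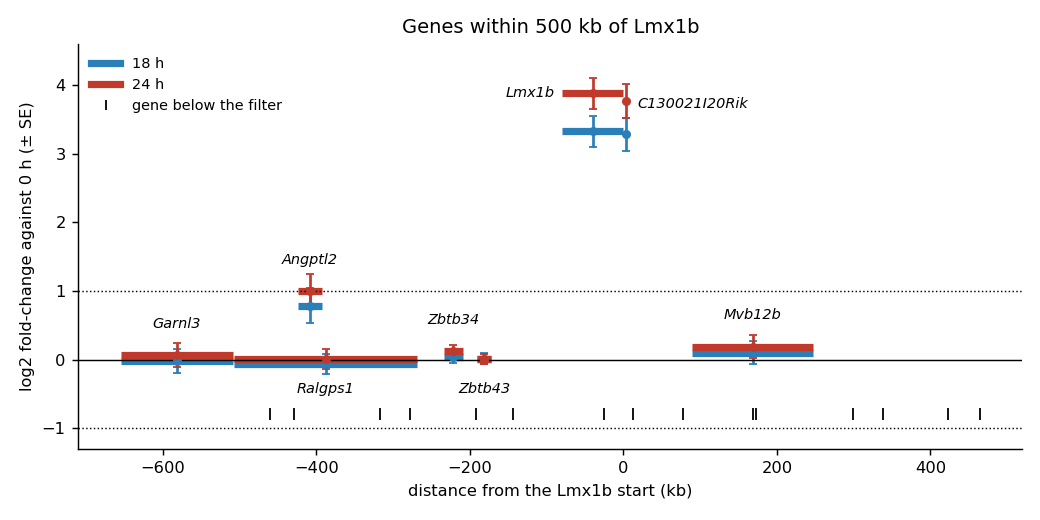
Log2 fold-change of FPKM+0.1 against 0 h (vertical; points with SE bars, at 18 h and 24 h) of Lmx1b and the genes around it, drawn over the extent of each gene by distance from the Lmx1b start (horizontal, kb). Dotted lines mark a log2 fold-change of 1 and -1 and ticks mark the 15 genes below the filter; the pair lies above 3, Angptl2 near 1 and the other 5 tested genes near 0.

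Lmx1a, the paralogue of Lmx1b, did not follow it. Lmx1a (ENSMUSG00000026686; chr1:167689237-167848741, plus strand, up to 9 exons) had 8, 4 and 3 reads at 0 h, 2, 1 and 2 reads at 18 h, and 1, 1 and 3 reads at 24 h. The levels were 0.0988, 0.0491 and 0.0406 FPKM at 0 h, 0.0258, 0.0118 and 0.0243 FPKM at 18 h, and 0.0116, 0.0115 and 0.0324 FPKM at 24 h. Every dox library lay below every 0 h library, yet all of them rested on 1 to 3 reads. The ratio of pooled reads at 24 h to 0 h was 0.307 (95% interval 0.0873 to 0.888, counting error only). Lmx1a did not pass the filter on low values and was not tested with the other genes.

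Lhx1 and Lhx5, closely related LIM-homeodomain genes of spinal interneurons, both started low, and whether their changes differed was not tested. Lhx1 (ENSMUSG00000018698; chr11:84518284-84525535, minus strand, up to 5 exons) had 2, 2 and 1 reads at 0 h, 13, 13 and 18 reads at 18 h, and 24, 32 and 23 reads at 24 h. Its levels were 0.0206, 0.0205 and 0.0113 FPKM at 0 h, 0.140, 0.128 and 0.183 FPKM at 18 h, and 0.232, 0.308 and 0.207 FPKM at 24 h. The 3 time points of Lhx1 did not overlap. With so few reads at 0 h the size of the change is loosely fixed: the ratio of pooled reads at 24 h to 0 h was 14.5 (95% interval 5.98 to 46.0, counting error only), and the log2 fold-change of FPKM+0.1 was 1.56±0.258 (SE). At 18 h the log2 fold-change was 1.09±0.258 (SE). Lhx1os, an antisense gene beside Lhx1, had 0 to 6 reads in any library.

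Lhx5 (ENSMUSG00000029595; chr5:120431699-120441223, plus strand, 5 exons) stayed at or below 10 reads. It had 1, 3 and 4 reads at 0 h, 3, 5 and 3 reads at 18 h, and 7, 7 and 10 reads at 24 h. The levels were 0.0156, 0.0465 and 0.0684 FPKM at 0 h, 0.0488, 0.0746 and 0.0461 FPKM at 18 h, and 0.102, 0.102 and 0.137 FPKM at 24 h. The 24 h libraries lay above all others, and the 0 h and 18 h libraries overlapped. The ratio of pooled reads at 24 h to 0 h was 2.76 (95% interval 1.20 to 7.11, counting error only), and Lhx5 did not pass the filter on low values.

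Lhx2, a regulator of forebrain and eye fate, and Isl1, a regulator of motor and sensory neurons, both stood highest at 24 h. Lhx2 (ENSMUSG00000000247; chr2:38339281-38369733, plus strand, up to 5 exons) had 3, 8 and 2 reads at 0 h, 19, 22 and 11 reads at 18 h, and 45, 38 and 29 reads at 24 h. Its levels were 0.0286, 0.0759 and 0.0209 FPKM at 0 h, 0.189, 0.201 and 0.104 FPKM at 18 h, and 0.403, 0.339 and 0.242 FPKM at 24 h, with no overlap between time points. The log2 fold-change was 0.90±0.295 (SE) at 18 h and 1.60±0.295 at 24 h, and the ratio of pooled reads at 24 h to 0 h was 7.93 (95% interval 4.46 to 15.4, counting error only). Within each time point Lhx2 was lowest in replicate 3, the replicate in which Lmx1b was highest at 18 h and 24 h.

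Isl1 (ENSMUSG00000042258; chr13:116298281-116309689, minus strand, up to 6 exons) had 7, 2 and 3 reads at 0 h, 15, 10 and 8 reads at 18 h, and 46, 25 and 22 reads at 24 h. Its levels were 0.0741, 0.0210 and 0.0349 FPKM at 0 h, 0.166, 0.101 and 0.0835 FPKM at 18 h, and 0.457, 0.247 and 0.204 FPKM at 24 h. The 3 time points did not overlap, and 24 h replicate 1 lay far above the other 24 h libraries. The log2 fold-change was 0.60±0.325 (SE) at 18 h and 1.46±0.325 at 24 h, and the ratio of pooled reads at 24 h to 0 h was 7.14 (95% interval 3.90 to 14.3, counting error only).

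Phox2a, a regulator of noradrenergic and cranial motor neurons, was the one member present in numbers before dox, and its libraries overlapped across the times. Phox2a (ENSMUSG00000007946; chr7:101818313-101822726, plus strand, up to 3 exons) had 58, 70 and 68 reads at 0 h, 78, 62 and 69 reads at 18 h, and 74, 75 and 84 reads at 24 h. Its levels were 1.51, 1.81 and 1.94 FPKM at 0 h, 2.12, 1.55 and 1.77 FPKM at 18 h, and 1.81, 1.83 and 1.92 FPKM at 24 h. The change at 24 h was 0.08 on the log2 scale with a 95% interval of -0.24 to 0.40. Phox2a shares 95 bases of its span with Inppl1 on the opposite strand, which had 3331 to 5638 reads per library. The kit marks strand, but the strand setting used in counting is not given in the sources used here, so how many of the Phox2a reads came from Inppl1 was not tested.

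**Figure D3:**
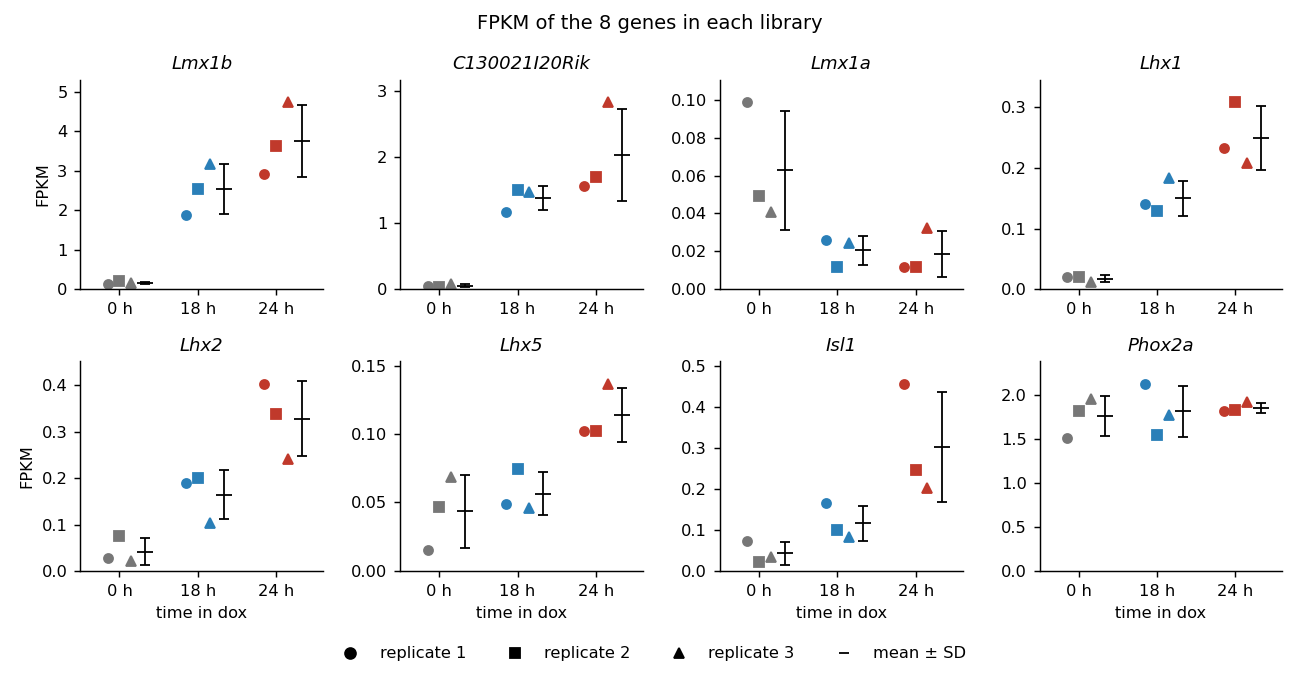
FPKM (vertical, from 0, own scale per gene) of the 8 genes in each library at 0, 18 and 24 h of dox (horizontal), with symbols for replicate numbers and the mean±SD (n=3) beside them. Lmx1b and C130021I20Rik reach 2.93 to 4.73 and 1.57 to 2.83 FPKM at 24 h, Lhx1, Lhx2, Lhx5 and Isl1 stay under 0.5 FPKM, Lmx1a in dox lies below its 0 h libraries on 1 to 3 reads, and Phox2a lies between 1.51 and 2.12 FPKM.

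The order of the 8 genes by mean FPKM changed with dox. At 0 h Phox2a (1.76±0.222 FPKM, mean±SD, n=3) stood alone at the top, Lmx1b (0.159±0.0344) followed, and the libraries of Lmx1a (0.0628±0.0314), C130021I20Rik (0.0529±0.0239), Lhx5 (0.0435±0.0265), Isl1 (0.0433±0.0275) and Lhx2 (0.0418±0.0297) overlapped from each to the next, with Lhx1 (0.0175±0.00533) lowest by mean, although its libraries overlapped those of Lhx5. At 18 h Lmx1b (2.54±0.643) and Phox2a (1.81±0.289) overlapped, and C130021I20Rik (1.38±0.184) came next. At 24 h Lmx1b (3.76±0.911) lay above all others, C130021I20Rik (2.03±0.694) and Phox2a (1.85±0.0575) overlapped, and Lhx2 (0.328±0.0809), Isl1 (0.303±0.135) and Lhx1 (0.249±0.0524) overlapped from each to the next. Lhx5 (0.114±0.0198) and Lmx1a (0.0185±0.0121) were the lowest.

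Of the 8 genes, 6 passed the filter on low values. C130021I20Rik, Lhx1, Lhx2 and Isl1 were among these 6 through their dox libraries alone, since their means at 0 h lay under 0.1 FPKM, so they had to differ. At 18 h, Lmx1b, C130021I20Rik and Lhx1 passed both thresholds (3 genes), beside 1.33% of all genes tested that were higher. At 24 h, Lmx1b, C130021I20Rik, Lhx1, Lhx2 and Isl1 passed (5 genes), beside 2.07% of all genes. Nothing is read from these counts, because the members were chosen with this comparison known. Lhx1 at 18 h lost its call when any 1 of the 9 libraries was left out, and Isl1 at 24 h lost it without either of 0 h replicates 2 and 3 or without either of 24 h replicates 1 and 2. With edgeR on the whole reads recovered from the deposited table, 4 members were higher at 18 h (Lhx2 in addition), beside 1.99% of genes, and the same 5 at 24 h, beside 2.81% of genes. With edgeR and the replicate number as a block Isl1 was added at 18 h, which made 5 members, beside 2.63% of genes. All 24 h libraries lay above all 0 h libraries for 6 members, of which 5 were tested and Lhx5 was not, and for 16.7% of all genes tested.

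**Figure D4:**
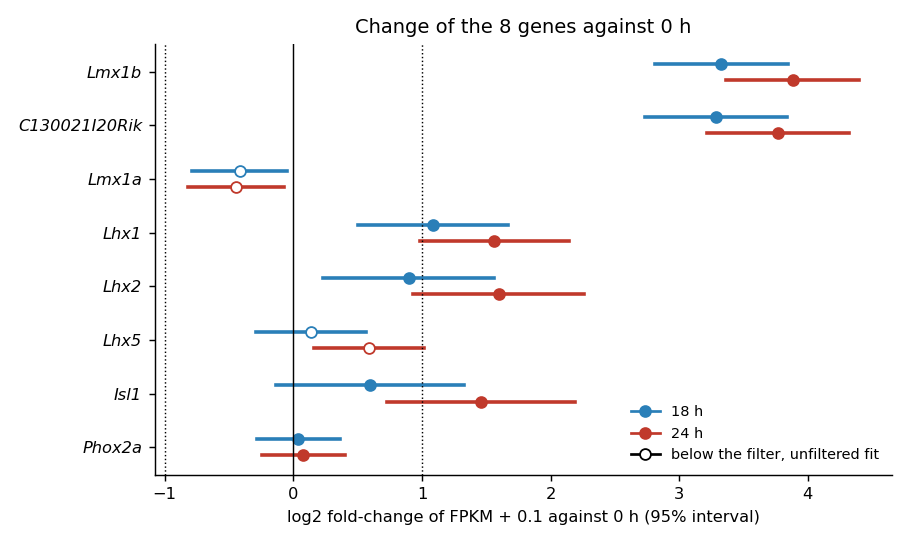
Log2 fold-change of FPKM+0.1 against 0 h with its 95% interval (horizontal) for each of the 8 genes (vertical) at 18 h and 24 h. Filled points come from the fit over the 17951 genes tested and open points, Lmx1a and Lhx5, from the fit without the filter; dotted lines mark -1 and 1. Lmx1b and C130021I20Rik lie above 3, Lhx1, Lhx2 and Isl1 between 0.60 and 1.60, and Phox2a at 0.

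The comparison of 24 h with 18 h asks whether the transcripts were still climbing. The choice of members named no value of this comparison, but it reuses the 24 h libraries on which the choice rested, and Lhx2 and Isl1 passed the filter through their dox libraries. The values and p values of the members in it are therefore given as a description, from which nothing is read. No member passed the test (limma), and over all genes tested 0.0167% were called higher. Among the 6 tested members, Lmx1b, Lhx2 and Isl1 had an unadjusted p under 0.05, as had 1004 of the 17951 genes. The log2 fold-change of Lmx1b was 0.55±0.229 (SE; adjusted p = 0.866, or 0.270 with the replicate number as a block). Isl1 had the widest step, 0.86±0.325 (SE; adjusted p = 0.857, or 0.295 with the block), and Lhx2 stood at 0.70±0.295 (SE; adjusted p = 0.866, or 0.341 with the block).

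Within each replicate number, the 24 h library of Lmx1b was above the 18 h library, by 1.55-fold, 1.43-fold and 1.49-fold for numbers 1, 2 and 3. The corresponding ratios of FPKM were 1.34, 1.13 and 1.91 for C130021I20Rik, 1.66, 2.40 and 1.14 for Lhx1, 2.13, 1.69 and 2.34 for Lhx2, and 2.76, 2.44 and 2.44 for Isl1. For Phox2a they were 0.854, 1.18 and 1.08, to both sides of 1. All 24 h libraries lay above all 18 h libraries for 5 members (C130021I20Rik, Lhx1, Lhx2, Lhx5 and Isl1), of which 4 were tested and Lhx5 was not, and for 6.81% of genes tested. With edgeR on whole reads and the replicate number as a block, Isl1 was past both thresholds (log2 fold-change 1.35, adjusted p = 0.0431), beside 0.0364% of genes. In the same fit Lmx1b had an adjusted p of 0.00457 at a log2 fold-change of 0.56, under the required 1. Without the block, edgeR gave Isl1 and Lmx1b an adjusted p of 0.920 each. A call for 24 h against 18 h was thus made for Isl1 by edgeR with the block, and for no member by limma with or without the block or by edgeR without it.

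Over the 9 libraries, on log2(FPKM+0.1), C130021I20Rik had a Pearson r of 0.992 with Lmx1b, the highest among 11892 genes with a mean of at least 1 FPKM. It reached that mean through its dox libraries, and both genes were chosen for the step from 0 h that the r reuses, so nothing is read from its rank. It was followed closely by Bmp7, a BMP ligand (0.992), Slc5a5, an iodide transporter (0.990), Hprt (0.989) and Peg3, an imprinted zinc-finger gene (0.987). These values describe 9 points in 3 groups that share a dox treatment, and most of each r is the step from 0 h. The levels at 0 h and 24 h were 1.16±0.225 and 14.1±3.28 FPKM for Bmp7 and 11.4±1.92 and 48.2±4.07 FPKM for Hprt. The inducible cassette sits upstream of HPRT in this line, and its part in the Hprt value was not tested. Once each time point was centred on its mean, the deviations of C130021I20Rik from library to library had an r of 0.620 with those of Lmx1b. The values of the other members were 0.359 for Lhx5, 0.127 for Lhx1, 0.0264 for Lmx1a, -0.109 for Phox2a, -0.493 for Lhx2 and -0.910 for Isl1. These r values rest on 9 deviations, and same-numbered libraries tended to deviate together. Lmx1b was highest in replicate 3 at 18 h and 24 h, and Isl1, on 2 to 46 reads per library, in replicate 1 at each time. Nothing is read from them.

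The 12 gene lists, the pluripotent cell markers included, were chosen with earlier results of these data known. Their p values and counts are therefore given as a description of these libraries, not as independent support. Of the remaining genes of the LIM-homeodomain family, 6 of 12, Lhx6 alone passed the filter and was tested by limma, without a call and with an unadjusted p above 0.05 at both times. Of the others, those with a value in edgeR (Lhx3, Lhx9 and Isl2) were not called by it without a block, and Lhx3 was called at 24 h by edgeR with the replicate number as a block. Lhx6 stood at 0.179±0.0433 FPKM (mean±SD, n=3) at 0 h and 0.200±0.0109 at 24 h (log2 fold-change 0.11±0.230, SE; adjusted p = 0.787, limma). Isl2, a partner of Isl1 in motor neurons, had 3, 6 and 2 reads at 0 h and 7, 8 and 8 reads at 24 h. Lhx3, which acts with Isl1 in motor neuron specification, had 4, 1 and 3 reads at 0 h, 4, 5 and 8 reads at 18 h, and 13, 7 and 11 reads at 24 h. Lhx3 was chosen for mention after its values were seen.

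Of 35 further homeodomain genes of neuron subtypes, 11 were tested by limma, 1 rose at both times and 2 fell at 24 h. With edgeR, Vsx1 and Onecut2, both under the filter, were also higher at 24 h, beside 2.81% of genes. Their log2 fold-changes were 2.71 and 1.75 (adjusted p = 0.047 and 0.00242, edgeR). Vsx1 had 0, 1 and 1 reads at 0 h and 5, 5 and 7 reads at 24 h. DESeq2 called Onecut2 and Nkx2-2 higher at 24 h in addition to Mnx1. With the replicate number as a block, Nkx2-2, a factor of ventral spinal progenitors, was also higher at 24 h (log2 fold-change 1.09, adjusted p = 0.0264, or 0.110 without the block, limma). Mnx1, a motor neuron and pancreatic factor, had 0.0508±0.0206 FPKM at 0 h, 0.433±0.0296 FPKM at 18 h and 0.561±0.172 FPKM at 24 h (log2 fold-change at 24 h 2.11±0.251, SE; adjusted p = 0.00173, limma). Mnx1 passed the filter through its dox libraries alone, so it had to differ. It stood near the level of Lhx2 and Isl1 at 24 h, below Lmx1b.

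Pou4f2, a factor of retinal ganglion cells, fell from 1.33±0.508 FPKM at 0 h to 0.472±0.105 at 24 h (log2 fold-change -1.27±0.297, SE; adjusted p = 0.0273, limma). Gsx1, a factor of dorsal spinal and ventral forebrain progenitors, fell from 0.434±0.198 to 0.0729±0.0272 FPKM (log2 fold-change -1.58±0.394, SE; adjusted p = 0.0347, limma). Both calls were fragile in limma without a block, since Pou4f2 lost its call in 5 and Gsx1 in 6 of the 9 fits that left out 1 library. With the replicate number as a block, limma called both lower at 24 h (adjusted p = 0.00492 and 0.00804). At that time edgeR with and without the block and DESeq2 also called both lower. With the replicate number as a block, Gsx1 was also lower at 18 h (adjusted p = 0.0351), where 1.71% of genes were higher and 1.11% lower. The median log2 fold-change of the 11 genes was 0.04 at 24 h against 0.00 over all genes, and 2.07% of all genes were higher and 0.836% lower. By limma without the block, 0.724% of genes were lower at 18 h and no listed gene was. Other fits did call listed genes lower at 18 h. These were Pou4f2 by edgeR without the block and by DESeq2, and Gsx1 by edgeR with the block.

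Serotonergic and dopaminergic neuron genes, the setting in which Lmx1b is best known, gave 2 higher genes of 11 tested (15 listed) at both times, beside 1.33% of all genes at 18 h and 2.07% at 24 h. With the replicate number as a block, Aldh1a1, a retinoic acid enzyme of dopaminergic neurons, was the third at 24 h (log2 fold-change 1.27, adjusted p = 0.00869, or 0.168 without the block, limma). Fev, which encodes the ETS factor Pet1 of serotonergic neurons, had 2, 0 and 0 reads at 0 h, 9, 12 and 14 reads at 18 h, and 17, 16 and 13 reads at 24 h (adjusted p = 0.00315 at 24 h, limma). The ratio of its pooled reads at 24 h to 0 h was 21.2 (95% interval 5.54 to 180.1, counting error only). Fev too passed the filter through its dox libraries alone. Gata2, a zinc-finger factor of serotonergic precursors and also of blood and trophoblast, rose from 0.105±0.0409 FPKM to 0.740±0.0643 at 24 h (log2 fold-change 2.05±0.211, SE; adjusted p = 0.000942, limma). The median over the 11 genes was 0.28 at 24 h. Tph2 and Slc6a4, which make and take up serotonin, and Th, which makes dopamine precursors, lay under the filter, with means at 24 h of 0.0946, 0.107 and 0.0266 FPKM. Ddc, the enzyme that makes both serotonin and dopamine and the most abundant gene of the list, was at 3.02±0.144 FPKM at 0 h and 2.19±0.319 at 24 h (log2 fold-change -0.45±0.133, SE; adjusted p = 0.0579, limma, 0.0114 with the block). Htr1a, a serotonin receptor under the filter, had 0, 1 and 0 reads at 0 h, 5, 6 and 4 reads at 18 h, and 7, 6 and 4 reads at 24 h, and was called by edgeR at both times (adjusted p = 0.0284 and 0.0201).

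Among the isthmus and roof plate genes, 1 of 9 tested (14 listed) was higher at 24 h, beside 2.07% of all genes. This was Msx2, a homeodomain target of BMP signalling, which went from 0.241±0.0503 to 0.709±0.197 FPKM (log2 fold-change 1.23±0.229, SE; adjusted p = 0.0116, limma). With the replicate number as a block, Msx1, a further homeodomain target of BMP signalling, was higher at 18 h (log2 fold-change 1.04, adjusted p = 0.0209, limma) and at 24 h (1.07, adjusted p = 0.0158). With edgeR, Msx2 was called higher at 18 h and 24 h, Wnt3a, a Wnt ligand of the roof plate, higher at 24 h (log2 fold-change 1.26, adjusted p = 0.0293) and Pax8 lower at 24 h (adjusted p = 0.0293). Wnt1 was at 0 in every library. Among the LIM cofactors, 1 of 8 tested (10 listed) was higher at 24 h: Lmo1, a LIM-only protein, at 0.120±0.0604 FPKM at 0 h and 0.405±0.135 at 24 h (log2 fold-change 1.20±0.301, SE; adjusted p = 0.035, limma), a call lost in 7 of the 9 fits without 1 library. Lmo1 was also called higher at 24 h by limma with the block, by edgeR with and without it and by DESeq2. Ldb1, the adaptor of LIM-homeodomain factors, was at 54.0±3.28 FPKM at 0 h and 43.7±3.58 at 24 h (log2 fold-change -0.31±0.0823, SE), short of the threshold on size. Of the 8 cofactors, 7 had an unadjusted p under 0.05 at 24 h, as had 28.2% of all genes, with Lmo1 and Lmo2 (0.76) higher and Ldb1, Lmo4 (-0.37), Ssbp2, Ssbp4 and Rlim lower. The median log2 fold-change was -0.34. Ssbp4, Ssbp2 and Rlim, which encode partners or regulators of Ldb1, had log2 fold-changes of -0.91, -0.85 and -0.48 (adjusted p = 0.00123, 0.0394 and 0.0216, limma), under the required size.

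No motor and autonomic neuron gene (4 tested of 9) and no pan-neuronal marker (8 tested of 9) passed the test at either time by limma. Of these lists, 1 and 4 genes had an unadjusted p under 0.05 at 24 h, as had 28.2% of all genes tested. At 24 h edgeR and DESeq2 called 0 and 1 (Rbfox3, a marker of mature neurons, lower). Tbx20, a T-box factor of visceral motor neurons and the heart, came nearest, with 2.002±0.274 FPKM at 0 h and 3.85±0.0792 at 24 h (log2 fold-change 0.92±0.119, SE; adjusted p = 0.00245, limma), and was called without 0 h replicate 2. Slc5a7, the choline transporter, had a log2 fold-change of 0.48±0.364 (SE; adjusted p = 0.426). Tubb3 stood at 41.5±6.49 FPKM at 0 h and 63.1±14.6 at 24 h (log2 fold-change 0.59±0.179, SE; adjusted p = 0.0638, limma). With the replicate number as a block its adjusted p was 0.000739 (limma), and edgeR without the block gave 0.0281. Stmn2 stood at 27.9±1.61 and 23.2±1.84 FPKM (log2 fold-change -0.27±0.0798, SE; adjusted p = 0.0596, or 0.00527 with the block, limma). Both changes were under the required size. The summed FPKM of the 9 pan-neuronal markers ranged from 68.9 to 82.9 at 0 h and from 82.7 to 108 at 24 h. The median log2 fold-change of the 8 tested went the other way, at -0.30 at 18 h and -0.10 at 24 h.

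Among 4 lists of markers of other cell types, limma without a block made calls in the trophoblast list alone. Of 7 tested trophoblast markers (8 listed), 3 rose at 18 h and 4 at 24 h, beside 1.33% and 2.07% of all genes, with a median log2 fold-change of 1.14 at 24 h. Hand1, a bHLH factor of trophoblast and heart, rose from 1.22±0.385 to 11.6±0.764 FPKM (adjusted p = 9.3e-05, limma) and Cdx2, a trophectoderm and posterior homeodomain factor, from 0.476±0.218 to 3.44±0.684 FPKM (adjusted p = 0.00117). Krt8 rose from 175±13.8 to 410±64.8 FPKM (adjusted p = 0.000878) and Tfap2a from 0.309±0.0387 to 0.808±0.169 FPKM (adjusted p = 0.0106), the latter not called without 24 h replicate 3. The summed FPKM of the list, nearly all Krt8, ranged from 172 to 198 at 0 h, from 416 to 492 at 18 h and from 377 to 505 at 24 h, while Elf5, a defining trophoblast factor, stayed at a mean of 0.019 FPKM or less at each time. Whether cells of this type carried any of the Lmx1b, Isl1 or Gata2 reads was not tested.

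None of the mesendoderm and node markers (9 tested of 10), cardiac and intermediate mesoderm markers (2 of 8) or podocyte and limb markers (4 of 7), tissues in which Lmx1b, Lhx1 or Isl1 also act, passed the test at either time by limma. At 24 h 2, 0 and 2 of them had an unadjusted p under 0.05, as had 28.2% of all genes tested. At that time edgeR called Gsc higher and Pax8 lower and DESeq2 called 0. Gsc was also called higher at 24 h by limma with the replicate number as a block (log2 fold-change 1.38, adjusted p = 0.0416, or 0.0508 without it), although it passed the filter through its 24 h libraries alone and so had to differ. T and Eomes had log2 fold-changes of -0.90±0.443 and -0.36±0.186 (SE) at 24 h, and T was called lower at 24 h by edgeR with the block (log2 fold-change -1.02, adjusted p = 0.00071), while limma with the block gave it an adjusted p of 0.00713. Mef2c, a cardiac factor under the filter, was called higher in that edgeR fit (log2 fold-change 1.03, adjusted p = 0.0117). Wt1, a podocyte and kidney factor, stood at 4.34±0.927 FPKM at 0 h and 4.79±0.509 at 24 h, and Nkx2-5 at 0.112±0.0457 and 0.119±0.0799 FPKM. Podxl, a podocyte surface protein that ESCs also make, was at 22.4±2.02 FPKM at 0 h and 14.1±0.333 at 24 h (log2 fold-change -0.66±0.0755, SE; adjusted p = 0.00143), and Nphs1 at 4.77±2.22 and 2.94±1.32 FPKM. Wnt7a, a dorsal limb signal, had a log2 fold-change of -0.83 (adjusted p = 0.0471). The median log2 fold-change over the 4 tested podocyte and limb genes was -0.67 at 24 h. The summed FPKM of that list, most of it from Podxl, did not overlap between 24 h and 0 h. The summed FPKM at 0 h and 24 h ranged from 3.41 to 4.39 and from 3.31 to 4.06 for mesendoderm, from 3.67 to 5.44 and from 4.51 to 5.73 for cardiac, and from 26.8 to 29.3 and from 16.9 to 19.2 for podocyte markers.

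Over the 12 lists, 78 of 132 distinct genes were tested, of which 6 rose at 18 h, and 9 rose and 2 fell at 24 h. Of all genes tested, 1.33% were higher at 18 h, and 2.07% were higher and 0.836% lower at 24 h. These counts are a description, because the lists were chosen with earlier results known. With the replicate number as a block, 13 rose at 24 h, where 2.34% of all genes were higher and 1.17% lower. The 4 added genes were Gsc, Nkx2-2, Msx1 and Aldh1a1. With edgeR, the block added Lmo1 (adjusted p = 0.0317), Msx1 (0.0021), Gsx1 (0.0154, lower) and Rbfox3 (0.0032, lower) at 18 h, where Pou4f2 (lower) was lost. At 24 h the block added Lhx3 (adjusted p = 0.0269), Nkx2-2 (0.00125), Nkx6-1 (0.0442), Aldh1a1 (0.00123), Msx1 (0.0014), Zic1 (0.0386), Mef2c, T (lower) and Ldb2 (0.0476, lower) with edgeR.

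**Figure D5:**
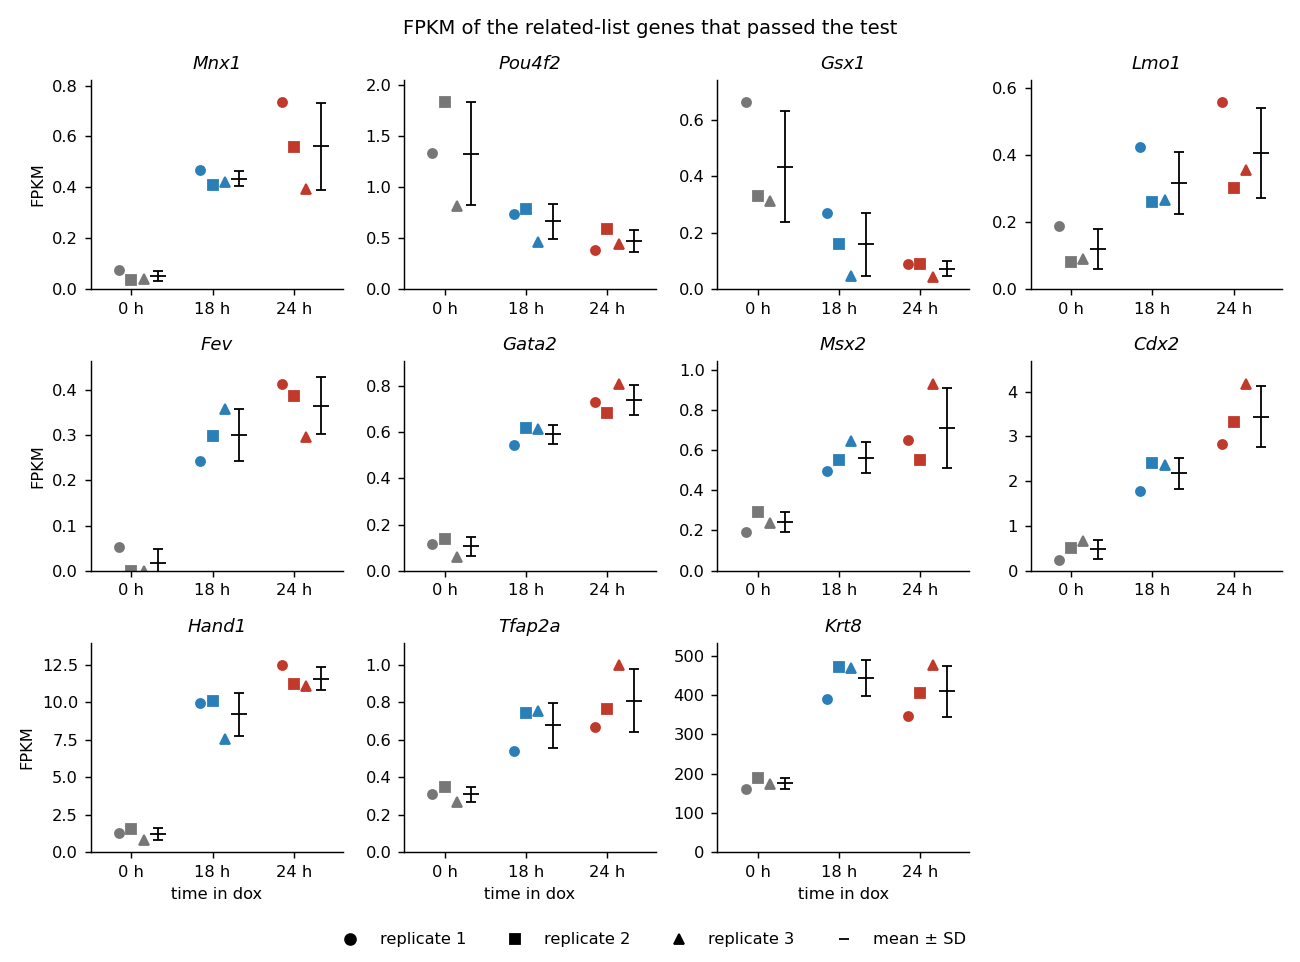
FPKM (vertical, from 0, own scale per gene) in each library at 0, 18 and 24 h of dox (horizontal) of the 11 listed genes that passed the test at either time, with the mean±SD (n=3). Of these, 9 genes are higher at 24 h than at 0 h, and Pou4f2 and Gsx1 are lower.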

How the data were processed

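Libraries were prepared with a kit that marks strand, from polyadenylated RNA, trimmed with cutadapt 1.9, aligned with STAR to GRCm38 and tested with edgeR 3.16.5, per the labels' processing notes and the study's methods. The counting tool and its strand setting are not given in the sources used here. The authors deposited FPKM values per gene, scaled for gene length and mapped reads, for 47729 genes. A filtered table that the authors deposited holds a signal per library for 19210 genes, namely CPM scaled by the authors with an effective library size. All of its 19210 values per library were whole multiples of what 1 read was worth (tolerance 0.02), which gave the reads used here. For each of their comparisons the authors deposited a log2 fold-change, p-value and FDR, which were not used, and mean CPM values, also unused. Of the FPKM table's genes, 47310 had an entry in GENCODE M21.

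The planned test for counts (edgeR) was not the main one, because the tables hold FPKM and scaled values. The main test was limma 3.58.1 in R 4.3.3 (lmFit and eBayes with an intensity trend) on log2(FPKM+0.1) over all 9 libraries, without a replicate block, for 17951 genes with a mean of at least 0.1 FPKM. A call required a p value of 0.05 or less after Benjamini-Hochberg adjustment over all genes tested, together with a log2 fold-change of 1 or more in size. Unless edgeR 4.0.16 is named, adjusted p values are limma's. The fits were tested on simulated data, but no outcome of that is reported here, so nothing is read from it. Ratios of pooled reads carry exact Clopper-Pearson 95% intervals, which cover counting error only. Figures and tables used Python 3.11.15, pandas 2.3.3, scipy 1.17.1 and matplotlib 3.10.9. No library column was unmatched. The labels do not say whether replicates came from separate cultures, while the study speaks of 3 biological experiments, and p values measure the spread between these samples. Replicate pairs differed by more than sampling noise (chi-square over its degrees of freedom 5.39 to 16.3).

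Replicate numbers, shared by the labels across time points, were checked as pairs. The deviations of same-numbered libraries from their time-point means correlated at 0.211 to 0.548 in all 9 pairs, over 11893 genes. In the 18 pairs of different number they correlated at -0.399 to 0.110. This met the rule for pairing. The main limma fit and the fits without single libraries leave the pairing out, so their SE and p values include the spread between replicate numbers. Blocked values stand beside a result where they change its call, and beside some others. The members and lists were chosen with earlier results of these data known. The named genes were the 8 members, the listed genes that were called (for a list without any, its 2 genes with the highest mean FPKM), genes within 500 kb of Lmx1b, the 5 genes with the highest Pearson r with Lmx1b, and Tcf3 and pluripotent markers as checks. Tph2, Slc6a4, Th, Htr1a, Ddc, Ldb1, Lmo2, Lmo4, Wnt3a, Ssbp4, Ssbp2, Rlim, Wnt1, Elf5, Rbfox3, Pax8, Wnt7a and genes called by edgeR or the block only were chosen after their values were seen. Alternatives were pseudocounts of 1 and 0.01, no filter, a mean of at least 1 FPKM, quantile normalization, median centring, the block, each library left out, edgeR on whole reads with and without the block, DESeq2 1.42.0 and no minimum fold-change. Promoter sequences came from RefSeq (GRCm38.p6). Lhx5 has no entry in the promoter table used here. One further listed gene is not reported here.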

Additional observations from a re-analysis of the deposited data

How the results depend on the processing

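The members were chosen for their change against 0 h, so nothing is read from its stability. Leaving out 1 library at a time gave log2 fold-changes at 24 h from 3.71 to 4.04 for Lmx1b and from 3.51 to 3.92 for C130021I20Rik. In each of these 9 fits 2 members were called at 18 h (beside 0.881 to 1.38% of genes higher), 0 at 24 h against 18 h, and 4 to 5 at 24 h (beside 1.33 to 1.98%). With a pseudocount of 1, or with genes of a mean of at least 1 FPKM, 2 members were called at 24 h (beside 0.468% and 1.40% of genes), because the larger constant shrinks low genes and the stricter filter removes them. With edgeR and the replicate number as a block, 5 members were called at 18 h, beside 2.63% of genes, and 1 at 24 h against 18 h, beside 0.0364%. With limma and the replicate number as a block the same 3 members (Lmx1b, C130021I20Rik and Lhx1) were called at 18 h and the same 5 (with Lhx2 and Isl1) at 24 h, beside 1.71% and 2.34% of genes, and 0 at 24 h against 18 h. Phox2a, near 0 throughout, changed sign with quantile normalization (-0.000307 at 24 h against 0 h and -0.0106 at 24 h against 18 h), with median centring (-0.00101 at 24 h against 18 h) and without single libraries. Those fits ranged from -0.0729 to 0.143 for 18 h against 0 h, from -0.0194 to 0.152 for 24 h against 0 h and from -0.0639 to 0.152 for 24 h against 18 h.

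With a pseudocount of 1, 3 listed genes were higher at 18 h and 3 at 24 h, beside 0.368% and 0.468% of all genes. With the mean of at least 1 FPKM there were likewise 3 and 3, beside 1.05% and 1.40%. With edgeR and the block there were 11 at 18 h and 22 at 24 h, beside 2.63% and 3.53%. With edgeR alone there were 15 at 24 h, beside 2.81%. Without single libraries, listed genes that were higher numbered 6 to 8 at 18 h and 7 to 10 at 24 h, beside 0.881 to 1.38% and 1.33 to 1.98% of all genes. Listed genes that were lower at 18 h numbered 1 with the block, 1 with edgeR, 2 with edgeR and the block, 1 with DESeq2 and 6 with no minimum fold-change, and stayed at 0 without single libraries. At 24 h they numbered 0 with a pseudocount of 1, with no filter and with the mean of at least 1 FPKM, 4 with edgeR, 6 with edgeR and the block and 9 with no minimum fold-change, and 0 to 2 without single libraries. The share of all genes that were lower is not given for most of these fits, so nothing is read from the counts of lower genes. The cause of the differences between fits was not tested.

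Among the genes around Lmx1b, 1 was called with a pseudocount of 0.01, with edgeR, with edgeR and the block, with DESeq2 and with no minimum fold-change, and 0 to 1 without single libraries (1 without 0 h replicate 3 or without 24 h replicate 1). C130021I20Rik, Lmx1a, Lhx1, Lhx2, Lhx5 and Isl1 had at most 8 reads in each 0 h library, so their fold-changes are limited by counting error.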

Other observations

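The 8 genes had no group of 4 or more libraries, so no library was tested as standing apart within its time point. Onecut2, a homeodomain gene of motor neurons and retina that lay under the filter on low values, had 11, 12 and 12 reads at 0 h, 19, 24 and 20 reads at 18 h, and 56, 44 and 33 reads at 24 h. The ratio of its pooled reads at 24 h to 0 h was 3.50 (95% interval 2.40 to 5.23, counting error only), and edgeR on whole reads gave an adjusted p of 0.00242. Onecut2 was chosen for mention after its values were seen.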
